A study of Mus musculus with 6 samples.

Results

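The Notch receptors, ligands and targets were followed in the lungs of mouse embryos in which Foxf1 was overexpressed from the Rosa26 locus. The set was chosen by gene symbol and holds 10 genes: the receptors Notch1, Notch2, Notch3 and Notch4, the ligands Dll4, Jag1 and Jag2, and the targets Hey1, Heyl and Hes1. These genes are represented by 13 of the 45281 probes of the Illumina mouse BeadChip, and 9 of the 13 probes, for 8 genes, were bright enough to be tested. The arrays, 1 per lung, held RNA of whole lungs at E18.5 from 3 R26Foxf1; Tie2-cre embryos and, as controls, from 3 R26-LSL-Foxf1 embryos. In both genotypes a Foxf1 transgene sits behind a stop cassette flanked by loxP sites. Only the R26Foxf1; Tie2-cre lungs (ROSA26Foxf1:Tie2-cre in the sample labels) also carried Tie2-cre, which removes the cassette in endothelial and hematopoietic cells, so the arrays measured the recombined cells together with all other cells of the lung. Fewer cells of a type and less RNA per cell cannot be told apart in such samples.

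Notch receptors are transmembrane proteins that are activated by ligands of the Delta and Jagged families on a neighbouring cell. Ligand binding exposes the receptor to ADAM proteases and then to gamma-secretase, and the released intracellular domain enters the nucleus, joins the DNA-binding protein RBPJ and a Mastermind coactivator, and switches on genes of the Hes and Hey families. In blood vessels Notch1 and Notch4 are the endothelial receptors and Notch3 is the receptor of smooth muscle cells and pericytes. Dll4 is the ligand of arterial endothelium and of the tip cells of sprouting vessels, where it limits sprouting of neighbouring cells. The Hes and Hey proteins are transcriptional repressors of the basic helix-loop-helix class, and Hes1 is also made in the airway epithelium, where it restrains neuroendocrine differentiation.

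Of the 10 genes, 7 had an entry in a table of RefSeq promoters (build GRCm38.p6), each running from 250 bases before to 50 bases after the start of the gene. Hey1, Heyl and Hes1 had none. The sequences of Notch4, Dll4, Notch1 and Notch3 are printed because their signals did not overlap between the genotypes. Capitals mark the motifs found on either strand. They are the AP-1 site TGACTCA, the TATA box TATATAA and the GC box GGGCGG, which is printed as its reverse complement where it lies on the other strand.
Notch4, chr17:34564045-34564344, plus strand: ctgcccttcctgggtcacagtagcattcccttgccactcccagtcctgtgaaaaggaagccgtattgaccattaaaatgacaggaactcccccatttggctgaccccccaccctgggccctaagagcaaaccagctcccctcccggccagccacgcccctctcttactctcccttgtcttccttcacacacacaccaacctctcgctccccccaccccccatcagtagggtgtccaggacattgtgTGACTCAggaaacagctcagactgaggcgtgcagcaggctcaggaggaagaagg
Dll4, chr2:119325534-119325833, plus strand: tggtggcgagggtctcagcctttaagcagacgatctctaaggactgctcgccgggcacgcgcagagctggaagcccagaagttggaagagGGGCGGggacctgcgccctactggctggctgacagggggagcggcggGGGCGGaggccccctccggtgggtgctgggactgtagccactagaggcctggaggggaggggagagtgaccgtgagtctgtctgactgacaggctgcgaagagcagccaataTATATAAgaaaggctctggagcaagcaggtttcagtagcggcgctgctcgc
Notch1, chr2:26503773-26504072, minus strand: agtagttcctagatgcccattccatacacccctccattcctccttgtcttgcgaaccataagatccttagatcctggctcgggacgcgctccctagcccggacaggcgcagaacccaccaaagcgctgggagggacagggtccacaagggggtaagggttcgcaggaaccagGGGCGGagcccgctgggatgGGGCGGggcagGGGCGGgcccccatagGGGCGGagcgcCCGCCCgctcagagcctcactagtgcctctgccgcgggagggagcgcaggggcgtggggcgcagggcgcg
Notch3, chr17:32166841-32167140, minus strand: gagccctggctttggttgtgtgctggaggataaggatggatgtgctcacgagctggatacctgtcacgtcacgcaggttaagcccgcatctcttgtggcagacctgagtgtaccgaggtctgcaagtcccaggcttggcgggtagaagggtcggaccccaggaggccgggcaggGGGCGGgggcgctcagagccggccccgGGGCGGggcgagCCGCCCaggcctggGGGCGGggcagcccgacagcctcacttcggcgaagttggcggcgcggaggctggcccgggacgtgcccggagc
The Notch4 promoter held the AP-1 letters, which began 4 bases before the start and ran across it. This match was found in 5.2% of all 32851 promoters and in 1 of the 7 members. The Dll4 promoter held the letters of the TATA box, which began 1 base before the annotated start and ran across it. These letters were found in 3.24% of all promoters. The Dll4 promoter also held 2 GC boxes. The Notch1 promoter held 5 GC boxes and the Notch3 promoter held 4. The GC box was found in 5 of the 7 members and in 35.7% of all promoters. Notch4 and Jag1 were the members without it. The GC content was 58.3% in the Notch4 promoter, against 68.3% for Notch1, 70.0% for Notch3 and 63.7% for Dll4. The letters TGGGAA, the core bound by RBPJ, were found in 25.6% of all promoters, and TGTTTAC, a forkhead core, in 3.65%. Both motifs were searched on both strands, and neither was found in any of the 7 windows, which says only that these letters are not in these windows.

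Signals are given on a log2 scale after background correction and quantile normalization, so a difference of 1 is a doubling. Between 19831 and 20043 probes per lung were detected, meaning that their detection p was under 0.01. The 20118 probes detected in at least 3 of the 6 lungs were tested with limma, and a probe was called where the p adjusted by Benjamini-Hochberg was under 0.05 and the groups differed at least 1.2-fold. The precision is limited by the 3 lungs in each group, with which an exact permutation test cannot give a p below 0.1. Pulmonary identity was clear in every lung from the surfactant gene Sftpc, with log2 signals of 14.18 to 14.28 in R26Foxf1; Tie2-cre lungs and 14.25 to 14.44 in control lungs. Nkx2-1, the lung epithelial transcription factor, had 10.73 to 11.17 in R26Foxf1; Tie2-cre lungs and 10.65 to 10.91 in control lungs. Foxf1 itself was at 10.93, 10.77 and 10.83 in R26Foxf1; Tie2-cre lungs and at 10.68, 10.15 and 10.77 in control lungs (log2 fold change 0.31, SE 0.17, limma adjusted p = 0.285). The groups did not overlap for Foxf1, but the change did not pass the test. By other methods, the paper reported Foxf1 overexpression in lungs of this age, from quantitative RT-PCR and from stronger FOXF1 staining. Whether the array probe reads the transcript of the transgene was not tested. R26Foxf1; Tie2-cre lung 3 had a log2 signal of 4.41 for the brightest probe of Xist, the RNA of the inactive X chromosome, against 11.87 to 12.69 in the other lungs. A probe of Eif2s3y, a gene of the Y chromosome, was detected in this lung alone, at 8.96 against 4.26 to 4.44 in the others. By these genes this lung was male and the others female, so sex was not balanced between the genotypes. Most transcripts of thymocytes were low in the R26Foxf1; Tie2-cre lungs and high in control lungs 1 and 2: the T cell receptor component Cd3e was at 4.51 to 4.72 in R26Foxf1; Tie2-cre lungs, against 8.68, 9.90 and 4.35 in control lungs. The mean log2 signal of skeletal muscle markers was 6.86 to 8.04 in R26Foxf1; Tie2-cre lungs, against 8.68 to 10.60 in control lungs, and 1 of the 5 tested, Myog, passed the test as lower. The mean of the 2 tested leukocyte markers, Csf1r and Lyz2, was 9.84 to 10.49 in R26Foxf1; Tie2-cre lungs and 10.67 to 11.002 in control lungs. The brightest probe of the lysozyme gene Lyz2 had an estimate of -1.09 (limma adjusted p = 0.0816).

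Among the 9 tested probes, 1 was called, the brighter of the 2 probes of Notch4, which rose 1.44-fold in R26Foxf1; Tie2-cre lungs. Over all tested probes 4.51% were called, 2.43% higher and 2.09% lower. The mean was higher in R26Foxf1; Tie2-cre lungs for 7 of the 9 probes, against 54.9% of all tested probes, and the median log2 fold change of the 9 was 0.27, against 0.03 for all tested probes. The groups did not overlap for 4 of the 9 probes, those of Notch1, Notch3 and Dll4 and the brighter probe of Notch4, each of them higher in R26Foxf1; Tie2-cre lungs. Over all tested probes the groups did not overlap for 31.9%, and for 18.5% with R26Foxf1; Tie2-cre higher. Before adjustment, 3 of the 9 (Notch4, Notch1 and Dll4) had a p under 0.05 and a difference of at least 1.2-fold, as had 24.9% of all tested probes.

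**Figure D1:**
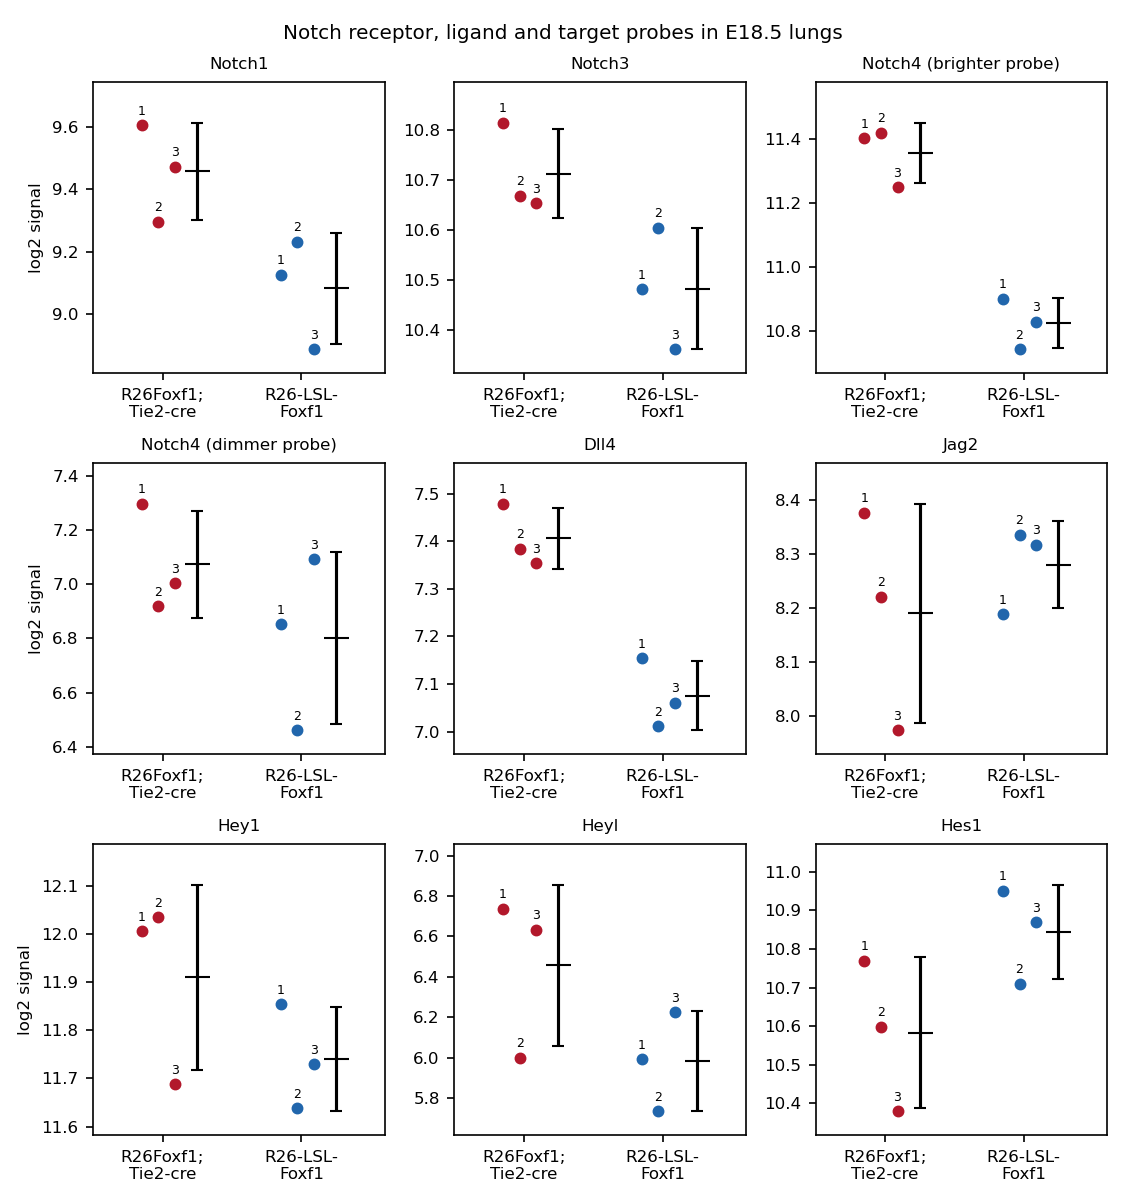
Log2 signal of each tested probe in each lung, R26Foxf1; Tie2-cre in red and R26-LSL-Foxf1 control in blue, with the replicate number above each point and the group mean and SD as bars (n = 3 each). Each panel has its own axis range, and the groups are apart in the panels of Notch1, Notch3, Notch4 (brighter probe) and Dll4.

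The receptors came to the 4 tested probes of Notch1, Notch3 and Notch4, and in each the R26Foxf1; Tie2-cre mean was the higher one, with log2 fold changes of 0.23 to 0.53 and a median of 0.32. Notch4 is the receptor most restricted to endothelium. Its brighter probe had log2 signals of 11.40, 11.42 and 11.25 in R26Foxf1; Tie2-cre lungs, against 10.90, 10.74 and 10.83 in control lungs. Every R26Foxf1; Tie2-cre lung lay above every control lung, and the gap between the lowest R26Foxf1; Tie2-cre lung and the highest control lung was wider than the spread within either group. The mean was 11.36 ± 0.09 in R26Foxf1; Tie2-cre lungs and 10.83 ± 0.08 in control lungs (SD, n = 3 each), a log2 fold change of 0.53 (SE 0.10, 95% interval 0.30 to 0.77, limma adjusted p = 0.0418). The change was 447th by p among all tested probes.

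The dimmer Notch4 probe had log2 signals of 7.30, 6.92 and 7.00 in R26Foxf1; Tie2-cre lungs, against 6.85, 6.46 and 7.09 in control lungs. Here the groups overlapped, since control lung 3 lay above R26Foxf1; Tie2-cre lungs 2 and 3. Its log2 fold change was 0.27 (SE 0.18, 95% interval -0.15 to 0.69, limma adjusted p = 0.374), and with 1 lung left out it ran from 0.10 without control lung 2 to 0.42 without control lung 3. The difference between the probes' log2 fold changes was 0.26 (exact permutation p = 0.3, two-sided), which was within the spread between lungs. The call for Notch4 thus rests on 1 of its 2 probes. It was kept when control lung 2 was left out (adjusted p = 0.0484) and was lost when any of the other 5 lungs was left out, where the log2 fold change stayed between 0.50 and 0.58 and the adjusted p was 0.0725 to 0.129. Without R26Foxf1; Tie2-cre lung 3, the male lung by Xist and Eif2s3y, the log2 fold change was 0.58 (adjusted p = 0.127).

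Notch1, the receptor shared by endothelium and many other cells, had log2 signals of 9.60, 9.30 and 9.47 in R26Foxf1; Tie2-cre lungs, against 9.13, 9.23 and 8.89 in control lungs. The groups did not overlap, with control lung 2 just under R26Foxf1; Tie2-cre lung 2. The log2 fold change was 0.38 (SE 0.13, 95% interval 0.07 to 0.68), and the limma adjusted p of 0.127 did not pass the threshold. Notch3, the mural cell receptor, had log2 signals of 10.81, 10.67 and 10.65 in R26Foxf1; Tie2-cre lungs, against 10.48, 10.60 and 10.36 in control lungs. The groups did not overlap here either, with a narrow margin at control lung 2. The log2 fold change of Notch3 was 0.23 (SE 0.11, 95% interval -0.02 to 0.48, limma adjusted p = 0.224). Notch2 was not measured well: of its 2 probes, 1 was detected in control lung 3 and nowhere else, and the other was detected in no lung, so no fold change is given.

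The ligands gave 2 tested probes. Dll4 had log2 signals of 7.48, 7.38 and 7.35 in R26Foxf1; Tie2-cre lungs, against 7.15, 7.01 and 7.06 in control lungs. The lungs of each genotype lay close together, with an SD of 0.07 in each group, and the groups were apart. The log2 fold change was 0.33 (SE 0.10, 95% interval 0.11 to 0.55), and the limma adjusted p of 0.0876 did not pass the threshold. The dimmer Dll4 probe was detected in no lung. Jag2, a ligand of the Jagged class, had log2 signals of 8.38, 8.22 and 7.97 in R26Foxf1; Tie2-cre lungs, against 8.19, 8.33 and 8.32 in control lungs. These groups overlapped, and the R26Foxf1; Tie2-cre lungs held both the highest and the lowest value. Its log2 fold change was -0.09 (SE 0.13, 95% interval -0.39 to 0.20, limma adjusted p = 0.688), and it was 0.02 without R26Foxf1; Tie2-cre lung 3. The single probe of Jag1, the Jagged ligand of endothelium and smooth muscle, was detected in no lung. The 4 probes that were not tested lay between 4.39 and 5.45 on the log2 scale in every lung.

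None of the 3 target genes was called, and their estimates did not share one sign. Hey1, a target in arterial endothelium, had log2 signals of 12.01, 12.04 and 11.69 in R26Foxf1; Tie2-cre lungs, against 11.85, 11.64 and 11.73 in control lungs. R26Foxf1; Tie2-cre lungs 1 and 2 lay above all control lungs and lung 3 lay among them. The log2 fold change of Hey1 was 0.17 (SE 0.13, 95% interval -0.13 to 0.47, limma adjusted p = 0.431), and with 1 lung left out it ran from 0.11 without R26Foxf1; Tie2-cre lung 2 to 0.28 without R26Foxf1; Tie2-cre lung 3. Heyl, a target known from smooth muscle, had log2 signals of 6.74, 6.00 and 6.63 in R26Foxf1; Tie2-cre lungs, against 5.99, 5.74 and 6.23 in control lungs. R26Foxf1; Tie2-cre lungs 1 and 3 were above all control lungs, while lung 2 fell among them, and the log2 fold change was 0.47 (SE 0.22, 95% interval -0.03 to 0.97, limma adjusted p = 0.213). Its estimate was close to that of Notch4, with a wider standard error.

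Hes1, the target with the broadest expression, had log2 signals of 10.77, 10.60 and 10.38 in R26Foxf1; Tie2-cre lungs, against 10.95, 10.71 and 10.87 in control lungs. The groups overlapped at R26Foxf1; Tie2-cre lung 1, which was above control lung 2. The log2 fold change was -0.26 (SE 0.13, 95% interval -0.56 to 0.04, limma adjusted p = 0.250). With 1 lung left out the estimate ran from -0.35 to -0.16, and the value nearest to 0 came without R26Foxf1; Tie2-cre lung 3.

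**Figure D2:**
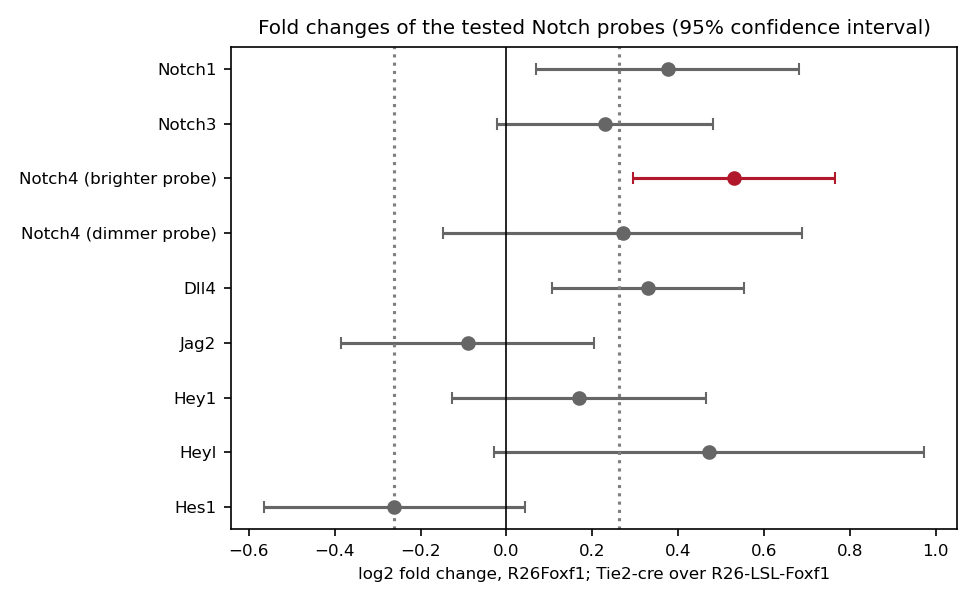
Log2 fold change of each tested probe, R26Foxf1; Tie2-cre over R26-LSL-Foxf1 control, as a point with its 95% confidence interval from limma, and dotted lines at the 1.2-fold limit. The called Notch4 probe is in red at 0.53, and the estimates run from -0.26 for Hes1 to 0.53.

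Since Notch4 and Dll4 are made mainly by endothelium, endothelial markers were examined beside them. Of 12 listed genes, 10 were tested and none was called, against 2.98% of all tested genes. At that share a list this short would mostly hold no call. By brightest probes, the adhesion molecule Pecam1 had an estimate of -0.12 on the log2 scale (limma adjusted p = 0.669) and the junction protein Cdh5 one of 0.04 (adjusted p = 0.886). Dimmer probes of Pecam1 went the other way. They had 0.14 with overlapping groups, and 0.40 (adjusted p = 0.146) with every R26Foxf1; Tie2-cre lung above every control lung. The receptor Tie1 had the largest by brightest probe, 0.38 (adjusted p = 0.0784), with groups that did not overlap. Vwf, the von Willebrand factor gene, had 0.26 (adjusted p = 0.181), also without overlap. The mean was higher in R26Foxf1; Tie2-cre lungs for 8 of the 10 genes, as it was for 6390 of all 11080 tested genes. The probes of Kdr and Erg were detected in no lung. The endothelial receptor Tek, whose promoter drives Tie2-cre, had an estimate of -0.02 (adjusted p = 0.923). None of the 6 arterial markers was called, where the same share applies, among them Gja5 at 0.01 and Gja4 at 0.13. The mean log2 signal of the 10 endothelial genes was 11.71, 11.84 and 11.66 in R26Foxf1; Tie2-cre lungs and 11.65, 11.56 and 11.71 in control lungs, a difference of 0.09 with overlapping groups (exact permutation p = 0.3, two-sided).

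Relative to this endothelial mean, Notch4 and Dll4 were higher in every R26Foxf1; Tie2-cre lung than in every control lung. The mean itself differed by only 0.09 between the groups, so subtracting it moved each group difference by no more than that. It is not a separate check of how much endothelium the lungs held. Notch4 lay at -0.31, -0.42 and -0.41 log2 units from the mean in R26Foxf1; Tie2-cre lungs, against -0.75, -0.82 and -0.88 in control lungs. The change was 0.44, close to the 0.53 of the plain signals. Dll4 lay at -4.23, -4.45 and -4.31 in R26Foxf1; Tie2-cre lungs, against -4.50, -4.55 and -4.65 in control lungs, a change of 0.24. Hes1 was the 1 probe of the 9 that was lower throughout, at -0.94, -1.24 and -1.28 in R26Foxf1; Tie2-cre lungs, against -0.70, -0.85 and -0.84 in control lungs, a change of -0.35. Each of these 3 comparisons had the smallest possible exact p of 0.1, and the other 6 probes overlapped between the groups on this scale, Notch1 and Notch3 included. Of all tested probes 27.6% did not overlap on the same scale, 7.21% being higher and 20.4% lower in every R26Foxf1; Tie2-cre lung than in every control lung.

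**Figure D3:**
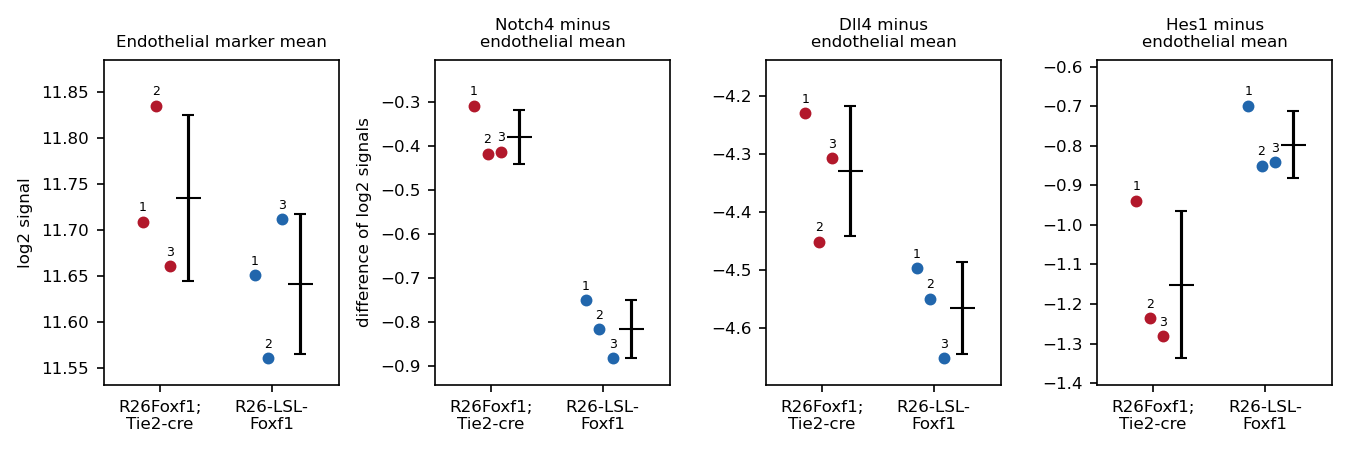
Mean log2 signal of 10 endothelial markers in each lung, and the log2 signals of Notch4 (brighter probe), Dll4 and Hes1 minus that mean, with R26Foxf1; Tie2-cre in red and R26-LSL-Foxf1 control in blue and bars at the mean and SD (n = 3 each). Notch4 and Dll4 lie higher and Hes1 lower in all R26Foxf1; Tie2-cre lungs, while the endothelial mean overlaps, with 11.66 to 11.84 in R26Foxf1; Tie2-cre and 11.56 to 11.71 in control lungs.

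For Notch3 and Heyl the mural markers were examined. None of 6 tested was called, against 2.98% of all tested genes. Pdgfrb, the receptor that recruits pericytes, was nearest to the threshold, with log2 signals of 9.58, 9.51 and 9.58 in R26Foxf1; Tie2-cre lungs, against 9.07, 9.22 and 8.92 in control lungs (log2 fold change 0.49, SE 0.11, limma adjusted p = 0.0503). Of the contractile genes, Myh11 had a log2 fold change of -0.02 and Tagln one of -0.58 (adjusted p = 0.166) with overlapping groups. The 4 tested probes of Acta2 had -0.07, -0.16, -0.70 and -0.61 in order of brightness, with no overlap for the third alone, where R26Foxf1; Tie2-cre was lower (adjusted p = 0.116). The mean log2 signal of the tested mural markers was 9.10 to 9.24 in R26Foxf1; Tie2-cre lungs and 8.99 to 9.36 in control lungs.

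The remainder of the pathway was read from a list of 70 genes, of which 63 had a probe and 49 were tested, each by its brightest probe. Of the 49, 1 was called higher and 0 lower, against 2.98% of all tested genes called in either direction. Before adjustment, 7 were higher and 3 lower with a p under 0.05 and at least 1.2-fold, against 20.4% of all tested genes in either direction. The groups did not overlap for 8 of the 49 with R26Foxf1; Tie2-cre higher and for 2 with it lower. Over all 11080 tested genes these counts were 2046 and 1210, so the absence of overlap does not set the pathway genes apart. The median log2 fold change of the list was 0.02, and that of all tested genes was 0.05. The called gene was Maml3, a Mastermind coactivator of the Notch intracellular domain, with log2 signals of 8.01, 8.15 and 8.41 in R26Foxf1; Tie2-cre lungs, against 7.54, 7.55 and 7.55 in control lungs. All R26Foxf1; Tie2-cre lungs were above the control lungs, which were almost level. Maml3 rose by a log2 fold change of 0.64 (SE 0.12, limma adjusted p = 0.0413). The call was kept without control lung 2 (adjusted p = 0.0449) and lost without any of the other 5 lungs. With the mean of thymocyte markers as a covariate, Maml3 was not called. The 1 gene called by its brightest probe was then Numbl, a relative of the Notch inhibitor Numb (1.30 on the log2 scale, limma adjusted p = 0.0250). That estimate rests largely on control lung 3, where Numbl was at 5.78, against 6.97 and 7.28 in control lungs 1 and 2. Maml3's relatives Maml1 and Maml2 had log2 fold changes of 0.07 and 0.00 by their brightest probes. Rbpj, the DNA-binding partner of every Notch receptor, had 3 probes and none was detected.

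By any tested probe, 3 more genes were called, each by a probe dimmer than its brightest. That came to 4 of the 83 tested probes of the list, a share close to the 4.51% of all tested probes. A dimmer probe of Ep300, a histone acetyltransferase recruited by Mastermind, gave 0.85 on the log2 scale (limma adjusted p = 0.0458), while its brightest had 0.05 (adjusted p = 0.871). The dimmest probe of Hes6, which acts against Hes1, had log2 signals of 7.22, 7.86 and 7.67 in R26Foxf1; Tie2-cre lungs, against 8.41, 8.35 and 8.58 in control lungs, an estimate of -0.86 (adjusted p = 0.0433). The next dimmest Hes6 probe had -0.74 (adjusted p = 0.0505) and the brightest -0.05 (adjusted p = 0.863), so the probes of Hes6 and those of Ep300 disagreed. Both tested probes of Kat2b, another acetyltransferase of the complex, were lower in R26Foxf1; Tie2-cre lungs with no overlap, by log2 fold changes of -0.73 (adjusted p = 0.0441) for the dimmer and -0.62 (adjusted p = 0.0899) for the brighter. With 1 lung left out, the Ep300 call was lost in every case. The Kat2b call was kept only without control lung 2 (adjusted p = 0.0220), and the Hes6 call only without control lung 2 (adjusted p = 0.0429) or R26Foxf1; Tie2-cre lung 2 (adjusted p = 0.0441).

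Among the other ligands, Egfl7, a secreted endothelial protein that binds Notch, had log2 signals of 14.17, 14.24 and 14.20 in R26Foxf1; Tie2-cre lungs, against 13.90, 13.78 and 13.89 in control lungs (log2 fold change 0.34, SE 0.09, limma adjusted p = 0.0746). Its next probe was also higher in every R26Foxf1; Tie2-cre lung, with a log2 fold change of 0.17, and its dimmest probe overlapped at -0.44. Mfap5, a microfibril protein that binds Jagged and Notch1, had the estimate of largest size in the list, -1.30 (SE 0.50, adjusted p = 0.154), with overlapping groups and log2 signals of 7.04, 9.20 and 7.92 in R26Foxf1; Tie2-cre lungs, against 8.87, 9.41 and 9.80 in control lungs. Among the ubiquitin ligases that internalize ligands, Mib2 had an estimate of 0.35 (adjusted p = 0.0817) and Neurl2 one of 0.30 (adjusted p = 0.170), both with groups that did not overlap. The 4 tested glycosyl modifiers ran from -0.06 for Rfng, a fringe glycosyltransferase, to 0.04 for Poglut1, the O-glucosyltransferase. Of the 7 tested cleavage enzymes the largest estimates were 0.31 for Aph1b (adjusted p = 0.204) and -0.15 for Psenen (adjusted p = 0.415), both subunits of gamma-secretase.

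Of the 4 tested repressor partners, the demethylase Kdm5a had an estimate of 0.40 (limma adjusted p = 0.0960) by its brightest probe. The corepressor Cir1 had -0.28 (adjusted p = 0.144) by its brightest probe, and for both of these probes the groups did not overlap. Dimmer tested probes of both genes did overlap between the groups, at -0.36 for Kdm5a and at -0.18 and 0.04 for Cir1. Of the 10 tested inhibitors and turnover genes, the E3 ligase gene Dtx4 was higher by both of its probes, at 0.41 and 0.40 (adjusted p = 0.118 for each), with no overlap. Numbl, a relative of the Notch inhibitor Numb, had 0.41 with overlapping groups (adjusted p = 0.481). Numb itself had 0.08 by its brightest probe (adjusted p = 0.607), with no overlap. Its dimmer tested probes went the other way, from -0.32 to -0.55, with no overlap only for the dimmest of them. When control lung 2 was left out, dimmer Numb probes were called as lower, at -0.64, -0.66 and -0.78. The probes of Numb thus disagreed. The Notch feedback gene Nrarp had -0.14 (adjusted p = 0.479). Of the 6 other targets tested, Ccnd1, a cyclin, had 0.29 (adjusted p = 0.174) with no overlap, and Hey2 had 0.02.

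**Figure D4:**
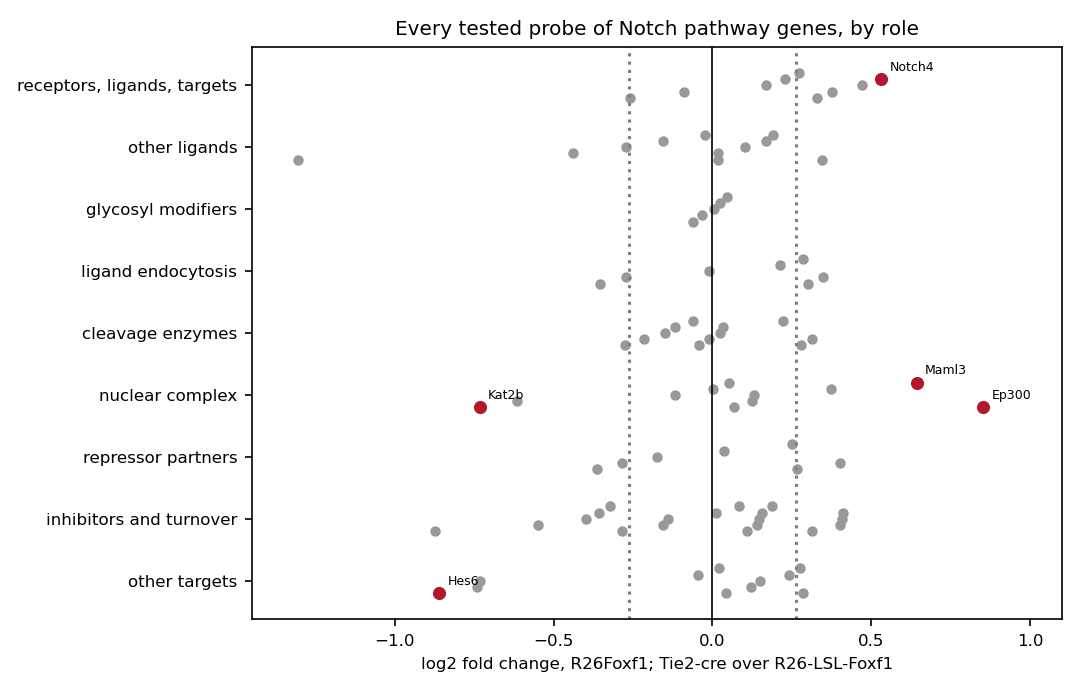
Log2 fold change, R26Foxf1; Tie2-cre over R26-LSL-Foxf1 control, of every tested probe of the 10 receptors, ligands and targets (top row) and of the other pathway genes by role, with dotted lines at the 1.2-fold limit and called probes in red with their gene names. Only probes of Notch4, Maml3, Ep300, Kat2b and Hes6 were called, and most points lie between -0.5 and 0.5.

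Thymocytes depend on Notch1 and express its targets, so the thymocyte signal of control lungs 1 and 2 was set beside the pathway genes. Whether it shaped their values was not tested. Of 11 thymocyte markers 10 had a probe, and the number detected was 1, 1 and 1 in R26Foxf1; Tie2-cre lungs and 7, 8 and 1 in control lungs. Their mean log2 signal was 5.30, 5.28 and 5.29 in R26Foxf1; Tie2-cre lungs, against 7.22, 8.02 and 5.33 in control lungs. The marker detected in every lung was the CD8 chain gene Cd8b1, whose brightest probe ran the other way, at 11.69, 11.58 and 11.80 in R26Foxf1; Tie2-cre lungs, against 11.31, 11.43 and 11.37 in control lungs (log2 fold change 0.32, limma adjusted p = 0.107). The next probe of Cd8b1 was at 4.72, 4.87 and 4.45 in R26Foxf1; Tie2-cre lungs, against 11.07, 12.04 and 4.98 in control lungs, so the probes of this gene disagreed. With the brightest probe included, the summed signal of the list was 3117 to 3612 in R26Foxf1; Tie2-cre lungs and 2725 to 9200 in control lungs. By brightest probes, both pathway genes with the lowest estimates after Mfap5 were highest in the same control lungs. Dtx1, a ubiquitin ligase that Notch switches on in T cells, had log2 signals of 4.83, 5.87 and 5.77 in R26Foxf1; Tie2-cre lungs, against 6.11, 7.19 and 5.79 in control lungs (estimate -0.87, limma adjusted p = 0.215). Gata3, a T cell transcription factor, had 5.49, 5.18 and 5.26 in R26Foxf1; Tie2-cre lungs, against 6.04, 7.07 and 5.01 in control lungs (estimate -0.73, adjusted p = 0.332). Ptcra, the pre-T cell receptor chain, was tested by no probe.

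Among the 10 members, Notch1 and Notch3 were also higher in control lungs 1 and 2 than in control lung 3. Notch1 was at 9.13 and 9.23 against 8.89, and Notch3 at 10.48 and 10.60 against 10.36. Hes1 did not follow this order, at 10.95, 10.71 and 10.87 in control lungs. The part of thymocytes in the values of Dtx1 and Gata3 was not tested. With the thymocyte mean as a covariate, the estimate of Notch1 was 0.58 on the log2 scale (adjusted p = 0.0862), against 0.38 without it. Under the same covariate Notch3 had 0.36 (adjusted p = 0.165), against 0.23 without it, and Heyl had 0.20 (adjusted p = 0.693), against 0.47 without it. The brighter Notch4 probe had 0.50 under the covariate and its adjusted p was 0.0982, and the dimmer Notch4 probe had -0.06. Against control lung 3 alone, which lacked the thymocyte signal, the brighter Notch4 probe had 0.53 and the dimmer -0.02. Notch1 then had 0.57, Notch3 0.35 and Heyl 0.23. This last comparison was chosen after the values were seen and leaves 1 control lung, which is assumed to vary like the others. The thymocyte mean was 5.28 to 5.30 in R26Foxf1; Tie2-cre lungs and 7.22, 8.02 and 5.33 in control lungs. The covariate estimates therefore also rest largely on control lung 3 and are not a separate check.

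**Figure D5:**
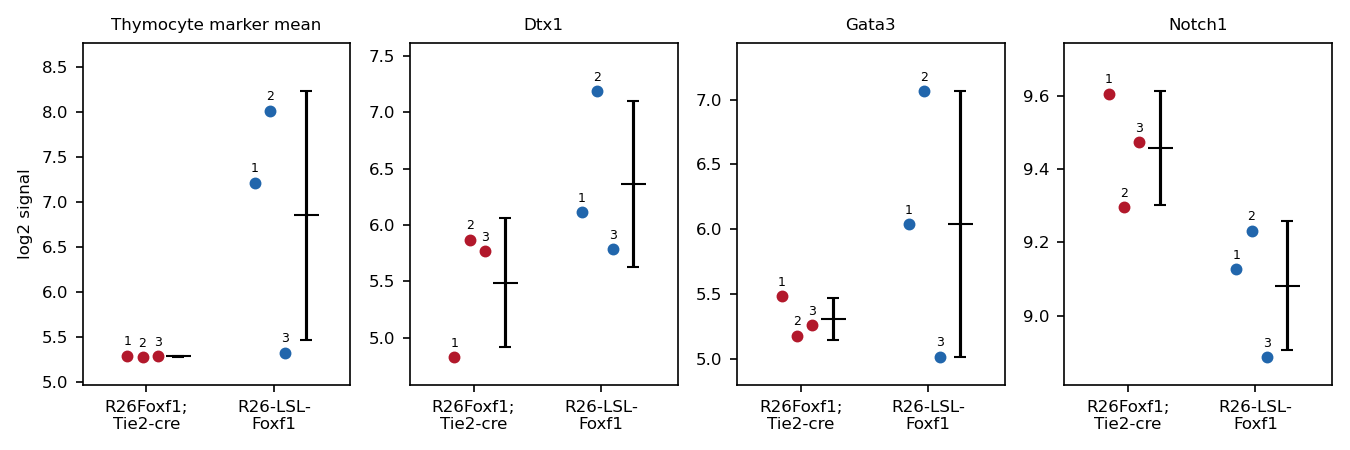
Mean log2 signal of 10 thymocyte markers and log2 signals of Dtx1, Gata3 and Notch1 in each lung, R26Foxf1; Tie2-cre in red and R26-LSL-Foxf1 control in blue, replicate numbers above the points and bars at the mean and SD (n = 3 each). The thymocyte mean is 5.28 to 5.30 in R26Foxf1; Tie2-cre lungs, against 7.22, 8.02 and 5.33 in control lungs, and Dtx1 and Gata3 are highest in the same control lungs.

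Over the 11080 tested genes, likeness to a member was measured as Pearson's r of log2 signals over the 6 lungs, as a description with no test. The lungs fall into 2 genotypes, so a gene that differs between them is like any other that does. Nearest to the brighter Notch4 probe were the signal transducer Stat6 (r = 0.996), the homeobox gene Hlx (r = 0.996), the exchange factor gene Arhgef7 (r = 0.992), Asnsd1 (r = 0.990) and Grasp (r = 0.990). Each of these was higher in every R26Foxf1; Tie2-cre lung, with log2 fold changes of 0.19 to 0.38 and adjusted p values of 0.0596 to 0.220, so none was called. Stat6, for example, had log2 signals of 7.83, 7.86 and 7.75 in R26Foxf1; Tie2-cre lungs, against 7.51, 7.45 and 7.46 in control lungs. Arhgef7 and Hlx were also among the 5 nearest genes of Dll4, whose nearest was the chloride channel gene Cftr (r = 0.996). The nearest gene was Camk2d for Notch1 (r = 0.995), Abcb10 for Notch3 (r = 0.999), Pcnx4 for Jag2 (r = 0.984), Ankrd13c for Hey1 (r = 0.981), Tsen54 for Heyl (r = 0.996) and Pef1 for Hes1 (r = 0.995).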

How the data were processed

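RNA of 6 whole lungs was measured on Illumina mouse BeadChips. For each probe the authors deposited a signal (intensity), background-subtracted, with 25.5% to 28.5% of values per lung below 0. Beside it the authors deposited a detection p-value, and in a second table log2-like values after robust spline normalization and variance stabilization, with column medians of 7.44. The paper describes the controls as littermates, but the sample labels do not say which lungs share a litter or chip. The reported fit therefore treats the lungs as independent. Its p values set the group difference against the spread between lungs, with no account of litter or chip.

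In R 4.3.3 with limma 3.58.1, neqc was run with 936 negative controls inferred from the detection p and an offset of 16, which yields quantile-normalized log2 signals. The filter kept probes detected in 3 or more lungs at the limit of 0.01. What passed was tested with lmFit and eBayes, with Benjamini-Hochberg adjustment over all of it. The thresholds are those of the study's methods, whose t-test was an alternative. Symbols came from the array annotation, updated by gene ID (assembly GRCm38.p6): 34885 probes had 1 symbol, 18 several and 10378 none, and 34807 were matched by gene ID. A pathway or marker gene was represented by its tested probe of highest mean, and levels of different probes were compared only as differences between genotypes.

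The named genes were every probe of the 10 members, every called pathway gene, up to 2 per role with the largest change, called and defining markers, Foxf1, Tek and the nearest genes by correlation. Other names were chosen after their values were seen. The members and lists were chosen with earlier results of these data known. The alternatives were other background, normalization, filter, variance, test and threshold settings, a replicate block, a thymocyte covariate, any probe of a gene, and each lung left out in turn.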

Additional observations from a re-analysis of the deposited data

How the results depend on the processing

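The call of the brighter Notch4 probe was kept in 8 of 21 alternatives and lost in 13, with log2 fold changes of 0.49 to 0.66 and adjusted p values of 0.00775 to 0.145 (limma, or the methods' t-test where named). Counts are given for all tested probes, the 9 Notch probes and the 49 other pathway genes in that order, with 908, 1 and 1 in the reported fit. Without a filter on dim probes they were 58, 0 and 0 (45281 probes tested), with detection p under 0.05 on at least 1 array 250, 0 and 0, and with the methods' t-test after adjustment 0, 0 and 0, on the deposited values 0, 0 and 0 as well. At unadjusted p values they were 5009, 3 and 10. With a variance trend and robust moderation they were 1860, 1 and 3, and with the deposited values the pathway count was 3. With a fold change of at least 1.5 the Notch count was 0, and with the thymocyte covariate it was 0. By any tested probe 4 other pathway genes were called. Leaving out each lung gave 2 to 1703 calls over all probes, 0 to 1 for the Notch probes and 0 to 2 for the other pathway genes. The highest counts came without control lung 2 and the fewest without R26Foxf1; Tie2-cre lung 3. Without control lungs 1 and 2, chosen after seeing the data, all 3 counts were 0. The cause of these changes was not tested.

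The sign turned for the dimmer Notch4 probe, to -0.064 with the thymocyte covariate and -0.019 without control lungs 1 and 2. Both of these settings rest largely on control lung 3. The sign also turned for Jag2, which ran from -0.18 to 0.018 over the lungs left out, positive only without R26Foxf1; Tie2-cre lung 3. Over the 9 probes and 21 alternatives, 171 of 189 results kept their direction and side of the threshold. Most of these belong to probes that were not called in the reported fit and had no call to lose. The count therefore says little of the called Notch4 probe, which kept its call in 8 of 21. Median scaling moved the median of all tested probes to 0.10, where the Notch4 value was 0.66 and that of Hes1 -0.14, and 61.7% of all calls were then higher in R26Foxf1; Tie2-cre lungs, against 39.3% with cyclic loess and 53.7% in the reported fit.

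The replicate numbers gave no clear pairing of the lungs. Deviations of same-numbered lungs correlated at 0.29, -0.04 and -0.03, and those of the other pairs at -0.20 to 0.17. With 3 lungs in each group these values depend on one another and cannot settle whether the numbers pair the lungs. With the replicate block 46 probes were called in all, 0 of the Notch probes and 0 other pathway genes, and the adjusted p of Notch4 was 0.0946. Dim probes limit what can be said of Notch2, Jag1 and Rbpj, whose probes were detected in no lung, apart from 1 Notch2 probe in control lung 3.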
